A study of Mus musculus with 29 samples.

Results

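The genes described here are 10 kinases and effectors of the DNA damage checkpoint: Atm, Atr, Chek1, Chek2, Cdc25a, Cdc25b, Cdc25c, Trp53, Trp53bp1 and Nbn. They were chosen by symbol. On the array, 14 probe sets carried the symbol of 1 of these genes alone, and they covered 9 of the 10 genes among 12394 measured in all. The probe annotation used here paired no probe set with Trp53 alone, so Trp53, the gene of the p53 protein, is not analysed here. Chek1 had 4 probe sets, Cdc25a and Trp53bp1 had 2 each, and each other gene had 1. Where a gene had several, the brightest over the arrays of a tissue stands for it, and the others are given beside it.

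RNA of bone marrow and spleen was measured on 29 Affymetrix arrays, 1 per sample, in MLL-ENL-ERtm mice, called fusion mice here, and in wild-type animals. MLL-ENL is a leukaemia fusion oncogene, and ERtm is a mutated oestrogen-binding domain that makes the fusion protein work only when tamoxifen is present. Every mouse, wild type included, ate chow with 300 mg/kg tamoxifen, so no group lacked the drug. The fusion marrow groups were proliferation (4 arrays, 7 months of tamoxifen), transition (4 arrays, 7 to 8 months) and senescence (3 arrays, 8 months), set against wild-type marrow (4 arrays, 7 months in 3 of them and 8 months in 1). The fusion spleen groups were early (3 arrays, 7 months), progression (3 arrays, 10, 10 and 9 months) and terminal (3 arrays, 21, 23 and 19 months), set against wild-type spleen (5 arrays, 24, 8, 9, 11 and 11 months). The submitters describe weak damage response signalling in proliferation marrow and strong signalling in transition marrow. They describe an active damage response in early and progression spleen and a low or absent one in terminal spleen. The arrays measured RNA of whole tissue, in which fewer cells of a type and less RNA per cell cannot be told apart. Terminal mice had taken tamoxifen for longer than mice of the other fusion groups, so stage and time on the drug cannot be told apart within the fusion mice.

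Atm and Atr are large kinases that respond to damaged DNA, Atm chiefly to double-strand breaks and Atr to single-stranded DNA at stalled replication forks. They activate the kinases Chek2 and Chek1, which restrain the Cdc25 phosphatases and so hold back the cyclin-dependent kinases that drive S phase and mitosis. Nbn belongs to the complex that brings Atm to breaks, Trp53bp1 binds chromatin beside breaks, and p53 switches on genes of arrest and death. Much of this signalling runs through phosphorylation and protein turnover, which RNA arrays do not read.

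Promoter stretches of 5 genes are shown because these genes changed in the spleen. They are the 250 bases before the start that RefSeq's table lists for each gene (GRCm38.p6), read along the gene's own strand. They lie at chr9:109875329-109875578 (plus strand) for Cdc25a, chr9:36726659-36726908 (minus strand) for Chek1, chr9:53536672-53536921 (minus strand) for Atm, chr2:131186698-131186947 (plus strand) for Cdc25b and chr2:121271408-121271657 (minus strand) for Trp53bp1. The listed start is not always the outermost end of the gene. The windows of Trp53bp1 (gene at chr2:121194835-121296354) and Cdc25b (gene at chr2:131186436-131198511) lie inside the gene. Those of Atm and Cdc25a lie partly inside it. Capitals mark letters that match an E2F site or a CCAAT box on either strand.
Cdc25a: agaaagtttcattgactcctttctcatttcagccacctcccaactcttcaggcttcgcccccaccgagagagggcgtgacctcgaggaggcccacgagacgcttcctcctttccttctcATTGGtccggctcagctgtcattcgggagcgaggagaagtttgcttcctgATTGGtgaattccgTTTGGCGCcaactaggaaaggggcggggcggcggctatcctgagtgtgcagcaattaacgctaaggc
Chek1: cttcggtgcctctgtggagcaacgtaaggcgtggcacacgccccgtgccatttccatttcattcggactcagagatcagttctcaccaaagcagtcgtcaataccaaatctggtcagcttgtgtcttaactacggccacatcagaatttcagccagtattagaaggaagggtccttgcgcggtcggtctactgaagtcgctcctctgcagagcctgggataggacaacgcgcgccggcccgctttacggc
Atm: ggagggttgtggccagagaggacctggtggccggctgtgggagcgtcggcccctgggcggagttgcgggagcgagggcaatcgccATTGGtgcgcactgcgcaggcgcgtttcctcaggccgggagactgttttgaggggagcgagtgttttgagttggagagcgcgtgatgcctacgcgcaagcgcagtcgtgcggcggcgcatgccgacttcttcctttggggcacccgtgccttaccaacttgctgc
Cdc25b: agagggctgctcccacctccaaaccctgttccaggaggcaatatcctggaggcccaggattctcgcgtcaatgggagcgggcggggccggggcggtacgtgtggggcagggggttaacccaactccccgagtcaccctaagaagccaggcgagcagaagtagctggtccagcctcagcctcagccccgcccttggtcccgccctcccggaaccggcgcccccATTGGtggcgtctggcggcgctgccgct
Trp53bp1: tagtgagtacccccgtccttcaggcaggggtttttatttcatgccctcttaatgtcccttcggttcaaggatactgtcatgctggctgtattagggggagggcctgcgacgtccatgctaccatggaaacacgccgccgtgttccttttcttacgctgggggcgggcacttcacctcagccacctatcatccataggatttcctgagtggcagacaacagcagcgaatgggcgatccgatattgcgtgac

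The E2F letters searched were TTTCCCGC, TTTCGCGC, TTTGCCGC and TTTGGCGC, the CCAAT box was searched as CCAAT, and the cell cycle homology region (CHR) as TTTGAA, each on both strands. Of 27025 promoters of that length, 1.91% held an E2F match, 34.5% a CCAAT match and 16.3% a CHR match. Cdc25a held the E2F letters TTTGGCGC, which end 59 bases before its start, and 2 CCAAT matches on the opposite strand. Atm and Cdc25b each held 1 CCAAT match and no E2F match, and Chek1 and Trp53bp1 held none of the 3 motifs in this window. Among the 8 genes of the list with a promoter in the table, Chek2 was the other one with an E2F match. These matches are descriptions of the letters and were not tested for binding.

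In spleen, Cdc25a was higher and Atm lower than wild type at all 3 stages, while Cdc25b and Trp53bp1 were lower and Chek1 slightly higher at the terminal stage. Values are log2 levels of the array, and a gene passed when its adjusted p by limma was under 0.05, with the adjustment made over all 12394 genes. In early spleen 2 of the 9 genes passed, 1 higher and 1 lower, where 15.9% of all genes passed (7.35% higher, 8.55% lower). In progression spleen 2 of 9 passed, 1 higher and 1 lower, beside 19.3% of all genes (9.29% higher, 9.96% lower). In terminal spleen 5 of 9 passed, 2 higher and 3 lower, beside 34.5% of all genes (18.1% higher, 16.3% lower). Groups that do not overlap were common in these arrays: the ranges stood apart from wild type in 24.9% of all genes in early, 23.9% in progression and 39.6% in terminal spleen. The median difference of the 9 genes from wild type was 0.05 in early, 0.17 in progression and -0.13 in terminal spleen, beside 0.03, 0.04 and 0.04 over all genes. The same 5 wild-type spleens served all 3 comparisons.

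**Figure D1:**
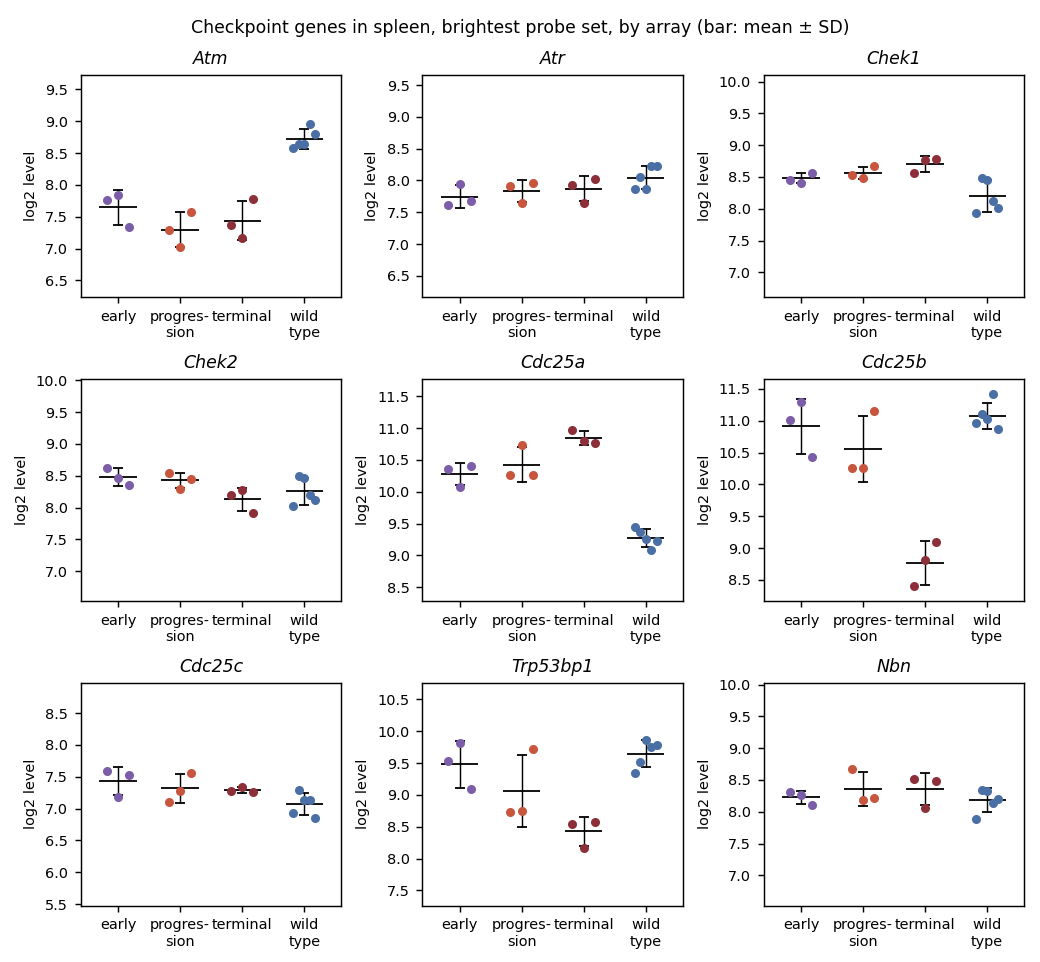
Log2 level of each checkpoint gene in the 14 spleen arrays (points), by group, with the mean and SD; every panel spans the same number of log2 units. Atm lies below and Cdc25a above every wild-type array at all 3 stages, and Cdc25b and Trp53bp1 lie lowest in terminal spleen.

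Atm, the break-responsive kinase, had levels of 7.76, 7.84 and 7.34 in early, 7.30, 7.02 and 7.58 in progression and 7.37, 7.17 and 7.78 in terminal spleen, against 8.58, 8.64, 8.64, 8.95 and 8.80 in wild-type spleen. Every fusion spleen lay below every wild-type spleen, and the 3 stages overlapped each other. The level was lower than wild type by 2.11-fold in early spleen (log2 difference -1.08 ± 0.17 SE, adjusted p = 0.00074 by limma), 2.68-fold in progression (-1.42 ± 0.17, adjusted p = 9.4e-05) and 2.43-fold in terminal spleen (-1.28 ± 0.17, adjusted p = 5.3e-05). Between stages Atm did not pass, with a difference of -0.35 (95% interval -0.75 to 0.06) for progression over early and 0.14 (-0.26 to 0.55) for terminal over progression. The genes whose spleen pattern lay closest to Atm's were Etnk1, Rora and Myof. Their root mean square difference from Atm over the 14 arrays was 0.17, 0.19 and 0.20 log2 units after centring, where the median gene differed by 0.71.

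Atr, the replication stress kinase, had levels of 7.61 to 7.95 in early, 7.64 to 7.96 in progression and 7.65 to 8.03 in terminal spleen, against 7.86 to 8.22 in wild-type spleen. The groups overlapped, and Atr did not pass at any stage. Its difference from wild type was -0.30 ± 0.14 in early, -0.21 ± 0.14 in progression and -0.18 ± 0.14 in terminal spleen, and the lowest bound of the 3 intervals was -0.59.

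Chek1, the kinase downstream of Atr, had levels of 8.46, 8.41 and 8.57 in early, 8.53, 8.49 and 8.67 in progression and 8.56, 8.76 and 8.79 in terminal spleen, against 7.93, 8.48, 8.46, 8.13 and 8.01 in wild-type spleen. Progression and terminal arrays all lay above the wild-type arrays, and early arrays overlapped them. Chek1 was 1.41-fold higher in terminal spleen (0.50 ± 0.13, adjusted p = 0.0099 by limma). The difference was 0.28 ± 0.13 in early (adjusted p = 0.19) and 0.36 ± 0.13 in progression spleen (adjusted p = 0.076), neither of which passed. Without wild-type spleen 2 or wild-type spleen 3 the progression difference was 0.43 and passed (adjusted p = 0.044 and 0.049). Its closest genes over the 14 spleen arrays were Topbp1, Cip2a and Zbed4, with root mean square differences of 0.11, 0.12 and 0.12. The median gene differed from Chek1 by 0.34.

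The other Chek1 probe sets did not all follow the brightest. The second, 1450677_at, had 7.61, 7.17 and 7.61 in early, 7.67, 7.31 and 7.59 in progression and 7.62, 7.64 and 7.43 in terminal spleen, against 6.95, 7.26, 7.38, 7.05 and 7.05 in wild-type spleen. Over all probe sets it also passed in terminal spleen (0.42 ± 0.14, adjusted p = 0.031). The 2 dim Chek1 probe sets lay below the lower quartile of the spleen arrays (4.56 to 4.81). One of them, 1420031_at, passed in early spleen (0.45 ± 0.10, adjusted p = 0.0094), with 3.96 to 4.06 in early spleen against 3.46 to 3.68 in wild-type spleen, and did not pass later. The mean of all 4 probe sets gave a terminal difference of 0.23 that did not pass (adjusted p = 0.07).

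Chek2, the kinase downstream of Atm, had levels of 8.63, 8.46 and 8.35 in early, 8.54, 8.30 and 8.45 in progression and 8.20, 8.27 and 7.92 in terminal spleen, against 8.02, 8.50, 8.46, 8.20 and 8.12 in wild-type spleen. It overlapped wild type at every stage and did not pass, with differences of 0.22 ± 0.13, 0.17 ± 0.13 and -0.13 ± 0.13 in early, progression and terminal spleen. Terminal arrays all lay below early arrays (-0.35 ± 0.15), which did not pass either (adjusted p = 0.17).

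Cdc25a, the phosphatase that releases Cdk2 and Cdk1 and is destroyed after Chek1 phosphorylates it, had levels of 10.35, 10.08 and 10.41 in early, 10.27, 10.74 and 10.26 in progression and 10.97, 10.79 and 10.77 in terminal spleen, against 9.44, 9.36, 9.25, 9.08 and 9.22 in wild-type spleen. All 9 fusion spleens lay above all 5 wild-type spleens, and the terminal arrays lay above the other 6 fusion arrays. Cdc25a was 2.01-fold higher in early (1.01 ± 0.13, adjusted p = 0.00026 by limma), 2.22-fold in progression (1.15 ± 0.13, adjusted p = 8.7e-05) and 2.97-fold in terminal spleen (1.57 ± 0.13, adjusted p = 1.8e-06). Its second probe set, 1417132_at, was higher by 0.93 ± 0.12, 0.86 ± 0.12 and 1.28 ± 0.12 at the 3 stages and passed at each. The closest genes over the 14 spleen arrays were Acot7, Lamtor4 and Pstpip1, at 0.13, 0.14 and 0.15, where the median gene differed by 0.66.

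Cdc25b, the phosphatase that starts activating Cdk1 at mitotic entry, had levels of 11.01, 11.29 and 10.43 in early, 10.26, 10.25 and 11.16 in progression and 8.40, 8.81 and 9.09 in terminal spleen, against 10.97, 11.10, 11.02, 11.42 and 10.87 in wild-type spleen. The terminal arrays lay far below all others, while early and progression spleens overlapped wild type. Over all genes, 24.5% stood apart between terminal and progression spleen and 24.7% between terminal and early spleen. Cdc25b was 4.96-fold lower in terminal than in wild-type spleen (-2.31 ± 0.24, adjusted p = 7.4e-06 by limma). The differences of -0.17 ± 0.24 in early and -0.52 ± 0.24 in progression spleen did not pass. Progression spleen 3 sat at the wild-type level, and without it the progression difference was -0.82 and passed (adjusted p = 0.017). The closest genes were Aldh1a1, Rab3il1 and Ift140, at 0.21, 0.22 and 0.23 over 14 arrays, where the median gene differed by 0.98.

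Cdc25c, the third phosphatase of the family, which acts on Cdk1, had levels of 7.59, 7.18 and 7.53 in early, 7.11, 7.28 and 7.56 in progression and 7.27, 7.34 and 7.26 in terminal spleen, against 6.93, 7.30, 7.13, 7.13 and 6.86 in wild-type spleen. The ranges overlapped at every stage. The difference was 0.37 ± 0.14 in early, 0.25 ± 0.14 in progression and 0.22 ± 0.14 in terminal spleen, and none passed. Without early spleen 2 the early difference was 0.49 and passed (adjusted p = 0.038). In terminal spleen, then, Cdc25a passed as higher, Cdc25b as lower, and Cdc25c did not pass.

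Trp53bp1, the mediator that binds beside breaks, had levels of 9.54, 9.82 and 9.09 in early, 8.73, 8.75 and 9.72 in progression and 8.55, 8.16 and 8.57 in terminal spleen, against 9.34, 9.52, 9.86, 9.75 and 9.78 in wild-type spleen. Terminal arrays lay below every other spleen array, and progression spleen 3 again sat with wild type. Trp53bp1 was 2.33-fold lower in terminal spleen (-1.22 ± 0.23, adjusted p = 0.00092 by limma). The progression difference of -0.59 ± 0.23 did not pass (adjusted p = 0.091), and without progression spleen 3 it was -0.91 and passed (adjusted p = 0.0042). The second probe set, 1426957_at, had 8.40, 8.51 and 8.15 in early, 7.96, 7.82 and 8.42 in progression and 7.52, 6.92 and 7.36 in terminal spleen, against 8.61, 8.52, 8.60, 8.79 and 8.63 in wild-type spleen. On it every fusion array lay below every wild-type array, though in early spleen only just (highest 8.51 against a lowest wild-type level of 8.52, means 8.36 and 8.63). Both progression (-0.56 ± 0.16, adjusted p = 0.027 by limma) and terminal spleen (-1.36 ± 0.16, adjusted p = 2.3e-05) passed. The closest genes to the brightest probe set were Cd82, Lpcat1 and Ibtk, at 0.19, 0.20 and 0.20 over 14 arrays, where the median gene differed by 0.62.

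Nbn, the adaptor that recruits Atm, had levels of 8.11 to 8.31 in early, 8.19 to 8.67 in progression and 8.06 to 8.52 in terminal spleen, against 7.88 to 8.35 in wild-type spleen. It did not pass at any stage, with differences of 0.05 ± 0.15, 0.18 ± 0.15 and 0.18 ± 0.15. The 95% intervals of the 3 differences lay between -0.28 and 0.50.

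**Figure D2:**
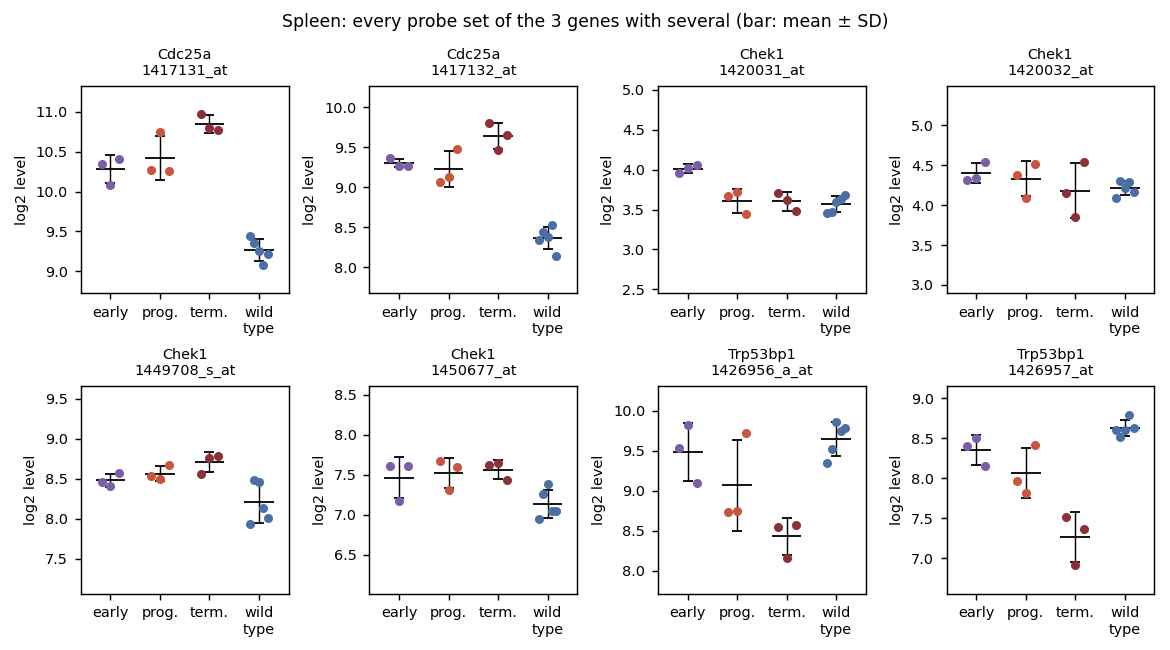
Log2 level of each probe set of Cdc25a, Chek1 and Trp53bp1 in the 14 spleen arrays (points), by group, with the mean and SD; panels span the same number of log2 units. Both Cdc25a and both Trp53bp1 probe sets move the same way in terminal spleen, while the dim Chek1 probe sets near 4 do not follow the bright ones.

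The stages of the fusion spleen were compared with each other to see what differed as the disease advanced. Between progression and early spleen no gene passed, among these 9 or over all 12394 genes, although 7.34% of genes had an unadjusted p under 0.05. In terminal against progression spleen 1 of 9 passed, beside 5.86% of all genes: Cdc25b was 3.47-fold lower (-1.79 ± 0.27, adjusted p = 0.0012 by limma). All terminal spleens had high Xist (11.58 to 12.15), the RNA of the inactive X chromosome, and all progression spleens low Xist (5.39 to 5.72). Sex and stage therefore cannot be told apart between terminal and progression spleen. In terminal against early spleen 3 of 9 passed, beside 6.61% of all genes. Cdc25b was 4.42-fold lower (-2.14 ± 0.27, adjusted p = 0.00018), Trp53bp1 2.08-fold lower (-1.05 ± 0.26, adjusted p = 0.027) and Cdc25a 1.48-fold higher (0.56 ± 0.15, adjusted p = 0.041). The last 2 calls were fragile: Cdc25a did not pass in 12 of 17 refits and Trp53bp1 in 8 of 17. Without early spleen 1, early spleen 2, terminal spleen 1 or terminal spleen 2 neither passed, with Trp53bp1 between -1.12 and -0.88 and Cdc25a between 0.46 and 0.60. Cdc25a also did not pass without terminal spleen 3 (0.60, adjusted p = 0.064 by limma). Neither did it pass after quantile normalization again, after centring on medians, or with proliferation marrow 1 and wild-type spleen 3 left out. Terminal against progression, Cdc25a was higher by 0.42 ± 0.15 and did not pass (adjusted p = 0.1), and without progression spleen 2 it was higher by 0.58 and passed (adjusted p = 0.042).

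Levels of B and T cell marker genes moved with several of these results, and their part in them was not tested. The 11 measured B cell markers stood at -1.11, -0.76 and -1.79 log2 units from the wild-type mean in early spleen 1, 2 and 3, and 8 of them were called lower. In progression spleen 1, 2 and 3 they stood at -2.19, -1.83 and -0.76, with 9 called lower and 2 higher, and in terminal spleen 1, 2 and 3 at -1.99, -3.29 and -2.20, with 9 called lower. Early spleen 3 and progression spleen 1 and 2, where Cdc25b and Trp53bp1 were lowest within their groups, had the lowest B cell levels within those groups. In terminal spleen the array lowest in B cell markers was lowest in Trp53bp1 but not in Cdc25b. The mean level of the list was 7.63 to 8.66 in early, 7.23 to 8.66 in progression and 6.12 to 7.42 in terminal spleen, against 9.23 to 9.60 in wild-type spleen. The T cell list was lower in 7 of 8 measured markers in early, 7 of 8 in progression and 8 of 8 in terminal spleen. Its mean level was 7.35 to 8.16, 7.28 to 8.08 and 7.05 to 7.57 at the 3 stages, against 9.01 to 9.27 in wild-type spleen, so it separated the same arrays as Atm did. The NK cell list had a mean level of 6.88 to 7.36, 7.20 to 8.06 and 7.22 to 7.62 at the 3 stages, against 7.54 to 8.28 in wild-type spleen. It thus overlapped wild type in progression and terminal spleen. No NK cell marker passed in progression spleen, and in terminal spleen Klrk1, Prf1 and Gzma were called lower and Nkg7 higher. RMA values have no zero, so no marker could be at 0.

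Markers of granulocyte precursors rose in the same spleens. All 5 measured promyelocyte markers were higher at each stage, with a mean level of 11.96 to 13.31 in early, 12.13 to 13.14 in progression and 12.79 to 13.40 in terminal spleen, against 8.40 to 9.85 in wild-type spleen. Every fusion spleen lay above every wild-type spleen, as for Cdc25a. Mature neutrophil markers were higher in all 8 measured genes at each stage, with a mean level of 12.69 to 13.36 in early, 12.46 to 13.07 in progression and 13.26 to 13.58 in terminal spleen, against 11.22 to 11.96 in wild-type spleen. Monocyte markers were higher in 3 of 5 measured genes at each stage and lower in 2, 0 and 1, with a mean level of 11.86 to 12.40, 12.33 to 12.85 and 12.61 to 12.71 at the 3 stages, against 11.33 to 11.42 in wild-type spleen. Both lists also separated the fusion spleens from the wild-type spleens. Tissue macrophage markers were lower in 7 of 8 measured genes in early, 5 in progression and 7 in terminal spleen. Their mean level was 8.56 to 9.72, 9.26 to 10.22 and 9.36 to 10.01 at the 3 stages, against 10.51 to 11.07 in wild-type spleen, a separation like that of Atm. The part of these lists in the values of Cdc25a and Atm was not tested. Erythroid markers fell in terminal spleen, in 6 of 7 measured genes, with a mean level of 9.10 to 9.53 there, against 10.61 to 10.89 in wild-type spleen, and no erythroid marker passed in early or progression spleen. Megakaryocyte and platelet markers had a mean level of 7.31 to 8.21 in terminal spleen, against 8.70 to 9.85 in wild-type spleen. Early (7.63 to 9.82) and progression spleens (8.95 to 10.90) overlapped wild type, as for Cdc25b, and the part of this list in the Cdc25b values was not tested. Xist, the RNA of the inactive X chromosome, was high in all terminal spleens (11.58 to 12.15), low in all progression spleens (5.39 to 5.72) and mixed in wild-type spleens (4.99 to 12.80). With the Xist level as a covariate, the terminal differences from wild type were -1.30 for Atm, 1.53 for Cdc25a, -2.26 for Cdc25b, -1.19 for Trp53bp1 and 0.63 for Chek1, and each passed. Wild-type spleen 1, the 1 wild-type mouse on tamoxifen for as long as the terminal mice, lay above the terminal range for Atm, Cdc25b and Trp53bp1 and below it for Cdc25a and Chek1. Wild-type spleen 3 carried pancreas acinar RNA (its marker list stood 4.97 above the mean of the 5 wild-type arrays) and early spleen 1 less of it (1.00 above that mean). Without wild-type spleen 3 the 5 terminal calls and the early and progression calls of Atm and Cdc25a remained, and Chek1 also passed in progression spleen.

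The partners of these genes in the pathway were followed through lists, which were chosen with earlier results of these data known. Over all genes, 7.35%, 9.29% and 18.1% were called higher and 8.55%, 9.96% and 16.3% lower in early, progression and terminal spleen. Every list count below stands beside these shares. Of 14 measured damage sensors and mediators, 2 were higher and 0 lower in early, 3 higher and 1 lower in progression and 3 higher and 0 lower in terminal spleen. The 3 of 14 higher in terminal spleen lie near the share over all genes. Timeless, which protects replication forks, was higher at all 3 stages (0.60 ± 0.14, 0.54 ± 0.14 and 0.62 ± 0.14). Topbp1, which activates Atr, was higher in progression (0.36 ± 0.10) and terminal spleen (0.54 ± 0.10). Bard1, the partner of Brca1, was higher in early (0.60 ± 0.19) and terminal spleen (0.84 ± 0.19), and Rad1, part of the clamp that helps load Topbp1, was lower in progression spleen (-0.47 ± 0.15).

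Of 11 measured kinases and cyclins of S phase and mitotic entry, 5 were higher in early, 5 in progression and 4 in terminal spleen, and none was lower at any of these stages. Plk1, a mitotic kinase, was higher by 0.78 ± 0.17, 0.67 ± 0.17 and 0.83 ± 0.17. Cdk2, a substrate of Cdc25a, was higher by 0.46 ± 0.12, 0.55 ± 0.12 and 0.69 ± 0.12. Pkmyt1, which adds the inhibitory phosphates that Cdc25 enzymes remove, was higher by 0.71 ± 0.16, 0.52 ± 0.16 and 0.49 ± 0.16. Wee1, the other kinase that adds them, was higher in early (0.55 ± 0.14) and terminal spleen (0.61 ± 0.14). Of 18 division markers, 6 were higher in early, 7 in progression and 7 in terminal spleen, where 3 were lower: Mki67 (-0.45 ± 0.14), Rrm2 (-0.59 ± 0.15) and Birc5 (-0.47 ± 0.13). The 3 of 18 lower there lie near the 16.3% of all genes called lower in terminal spleen.

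Of 18 measured p53 target genes, 0 were higher and 8 lower in early, 1 higher and 6 lower in progression and 1 higher and 7 lower in terminal spleen. The higher one was Cdkn1a, the p21 inhibitor of cyclin-dependent kinases, at 1.03 ± 0.28 in progression and 1.34 ± 0.28 in terminal spleen. Its levels were 9.26, 7.96 and 7.78 in progression and 8.66, 8.57 and 8.70 in terminal spleen, against 7.88, 7.15, 7.05, 7.18 and 7.23 in wild-type spleen. The terminal arrays lay above every wild-type array, whereas progression spleen 3 lay below wild-type spleen 1. Without progression spleen 1 the progression difference was 0.57 ± 0.20 and did not pass (adjusted p = 0.075 by limma). The terminal call of Cdkn1a held without any 1 array (1.28 to 1.49). Sesn1, a stress-induced metabolic regulator, was lower, with differences of -0.59 ± 0.18, -0.87 ± 0.18 and -1.89 ± 0.18 at the 3 stages, and its early call was lost without early spleen 2 or 3 or without wild-type spleen 1, 2, 3 or 4 (-0.66 to -0.41). Ddit4, an inhibitor of mTOR signalling, was lower, with differences of -1.34 ± 0.26, -2.02 ± 0.26 and -1.24 ± 0.26. Pmaip1, a pro-apoptotic BH3-only gene, was lower, with differences of -1.02 ± 0.24, -0.75 ± 0.24 and -0.87 ± 0.24. Its progression call was lost without progression spleen 2 or 3 or without wild-type spleen 3, 4 or 5 (-0.79 to -0.49), and its terminal call without terminal spleen 1 (-0.75, adjusted p = 0.059 by limma). Of 6 measured p53 regulators, Mdm2, the ligase that degrades p53, was higher in terminal spleen (0.59 ± 0.09) and Ppm1d, a phosphatase of p53 and Chek1, was lower (-1.03 ± 0.19), while none passed in early or progression spleen.

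**Figure D3:**
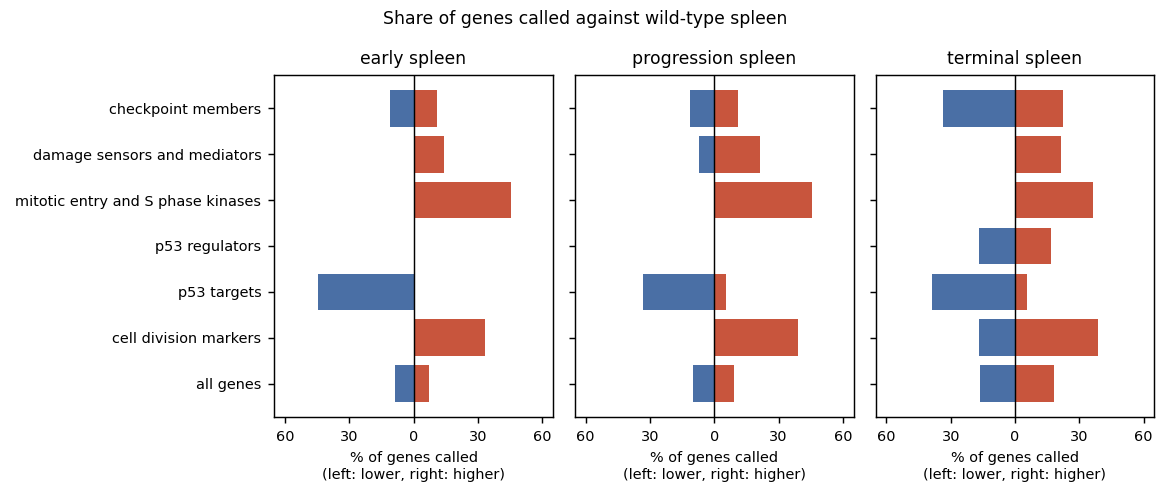
Share of the measured genes of each list called higher (red, right) or lower (blue, left) than wild-type spleen at adjusted p under 0.05, in percent, with the share over all genes in the bottom row. Kinases and cyclins of S phase and mitotic entry are called only as higher and p53 targets mostly as lower at each of the 3 stages.

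In bone marrow none of the 9 genes passed in any comparison. The share of all genes called was 0.282% in proliferation, 0.42% in transition and 0.0484% in senescence marrow against wild type, and 0.662% with the 3 fusion groups pooled. No gene passed between the 3 fusion states, where 2.15% of genes (transition against proliferation), 3.07% (senescence against transition) and 1.01% (senescence against proliferation) had an unadjusted p under 0.05. Xist was high in all proliferation (12.72 to 13.32) and transition marrows (12.61 to 13.04). It was mixed in senescence (7.02 to 12.87) and wild-type marrow (7.21 to 13.11), so sex was not balanced over the groups. With Xist as a covariate, Chek1, Chek2, Cdc25b, Cdc25c and Nbn changed sign in senescence against proliferation marrow. In senescence against transition marrow Chek1, Chek2, Cdc25c and Trp53bp1 did. None of these values passed in either fit. Of the 9 genes, 1 had an unadjusted p under 0.05 by limma in each comparison with wild type, and it was Atm each time. Over all genes that share was 9.9% in proliferation, 10.5% in transition, 6.36% in senescence and 12.5% in pooled marrow, so 1 gene of 9 lies near it.

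**Figure D4:**
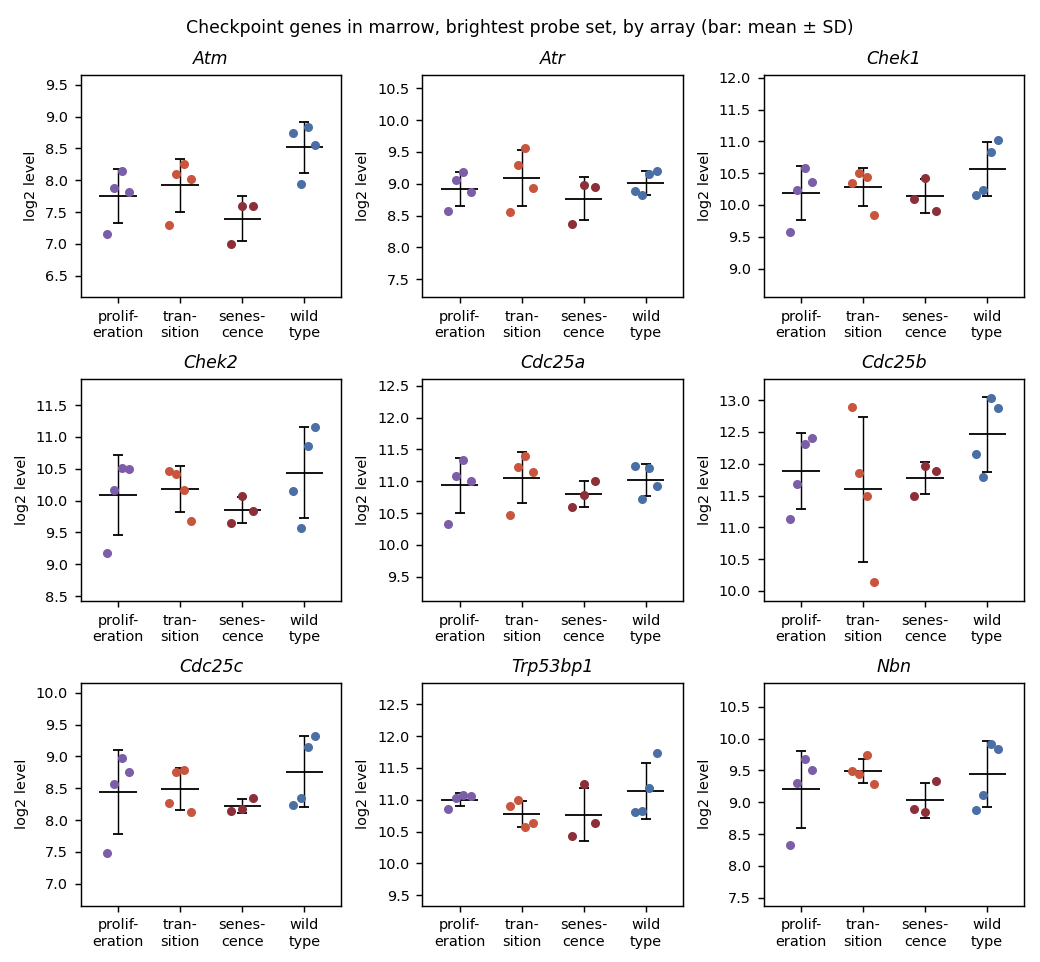
Log2 level of each checkpoint gene in the 15 marrow arrays (points), by group, with the mean and SD; every panel spans the same number of log2 units. The groups overlap for every gene except Atm, whose senescence arrays all lie below the wild-type arrays.

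Atm had levels of 7.15, 7.88, 8.15 and 7.81 in proliferation, 7.30, 8.10, 8.25 and 8.02 in transition and 6.99, 7.60 and 7.60 in senescence marrow, against 8.74, 7.94, 8.83 and 8.55 in wild-type marrow. Senescence arrays all lay below wild type, in a comparison where 6.04% of all genes had groups that did not overlap. By contrast, proliferation and transition arrays overlapped wild-type marrow 2. The difference was -0.77 ± 0.26 in proliferation (adjusted p = 0.3 by limma), -0.60 ± 0.26 in transition (adjusted p = 0.44) and -1.12 ± 0.28 in senescence marrow (adjusted p = 0.41). Pooled over the 3 states it was -0.83 ± 0.22 (95% interval -1.29 to -0.37, adjusted p = 0.11), which passed without transition marrow 1 (-0.76, adjusted p = 0.04) and without wild-type marrow 2 (-1.02, adjusted p = 0.043). B cell markers were also lower in fusion marrow, with a mean level of 7.96 to 8.45 in proliferation, 7.82 to 8.76 in transition and 8.21 to 8.90 in senescence marrow, against 9.13 to 10.17 in wild-type marrow, and their part in the Atm values was not tested. The closest genes to Atm over the 15 marrow arrays were Arap2, Rnf157 and Traf3ip2, at 0.24, 0.24 and 0.26, where the median gene differed by 0.57.

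The remaining genes had wide spreads within the marrow groups. Cdc25b spanned 11.13 to 12.41 in proliferation, 10.14 to 12.89 in transition and 11.49 to 11.96 in senescence marrow, against 11.79 to 13.03 in wild-type marrow. Chek2 spanned 9.17 to 10.51, 9.68 to 10.46 and 9.65 to 10.07 in the same 3 states, against 9.57 to 11.16 in wild-type marrow. Chek1 lay at 9.58, 10.23, 10.58 and 10.36 in proliferation, 10.34, 10.50, 10.44 and 9.85 in transition and 10.09, 10.43 and 9.90 in senescence marrow, against 10.16, 10.24, 10.84 and 11.02 in wild-type marrow. No group of these genes stood clear of wild type. Over the 3 states and 9 genes, the median difference from wild type was -0.32 in proliferation, -0.28 in transition and -0.42 in senescence marrow, where all genes had medians of 0.01, 0.04 and 0.00. All 9 differences were below 0 in proliferation and senescence marrow and 6 of 9 in transition marrow, and the comparisons share the 4 wild-type arrays. Without proliferation marrow 1 the proliferation median was -0.04, with 6 of 9 differences below 0. With any other array left out, the median lay between -0.49 (without proliferation marrow 3) and -0.12 (without wild-type marrow 4) in proliferation, between -0.42 (without wild-type marrow 1 or 2) and -0.09 (without wild-type marrow 4) in transition, and between -0.60 (without wild-type marrow 1) and -0.28 (without wild-type marrow 4) in senescence marrow. Other gene lists also lay below the wild-type mean in every senescence array. Division markers stood at -0.56 to -0.15, S phase and mitotic entry genes at -0.41 to -0.09, and damage sensors and mediators at -0.26 to -0.05. The p53 regulators stood at 0.03 to 0.12 and the p53 targets at -0.08 to 0.24. Wild-type arrays spanned -0.40 to 0.35 for the division markers.

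Proliferation marrow 1 was the lowest array of its group for every one of the 9 genes. It carried adipocyte and muscle RNA (3.20 above the wild-type mean by that marker list), and its division markers stood at -0.92 from the wild-type mean. Without it the proliferation differences came to -0.04 for Chek2, 0.05 for Nbn, 0.11 for Cdc25a and -0.18 for Chek1, against -0.35, -0.24, -0.09 and -0.38 with it, and none passed either way. Among the pathway lists, the 1 call in any marrow comparison was Pmaip1, higher in transition marrow by 1.66 ± 0.31.

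**Figure D5:**
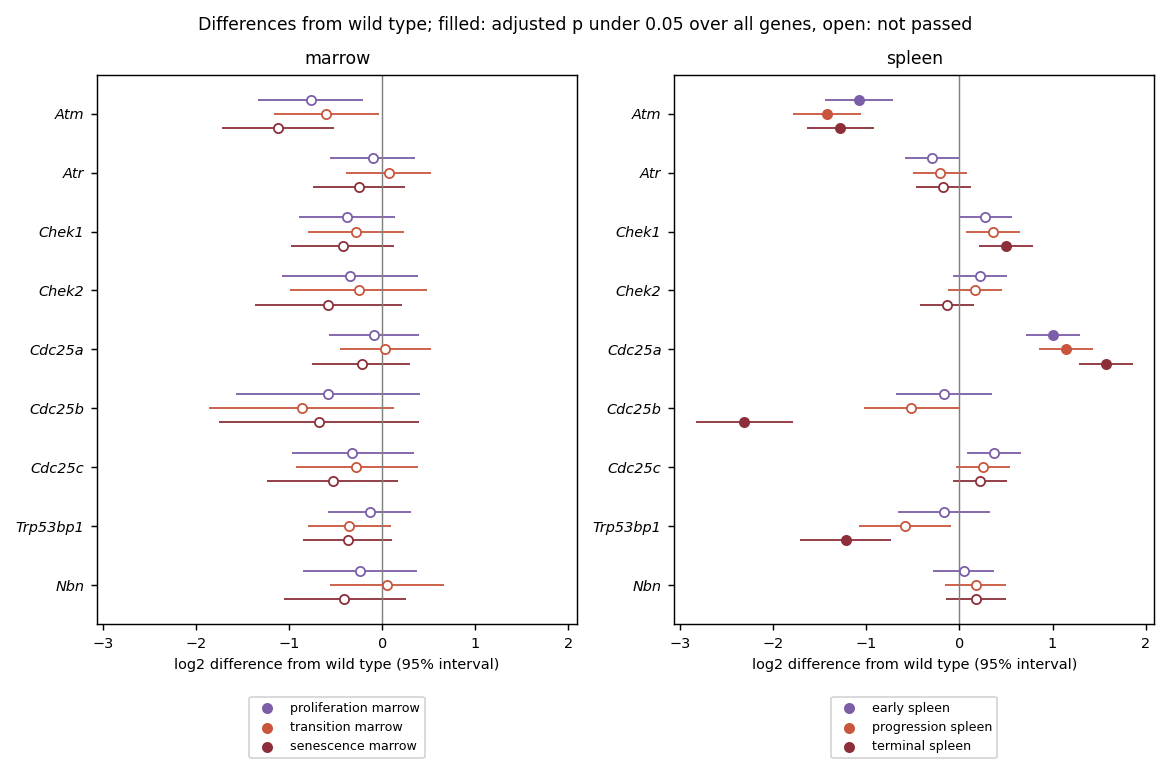
Log2 difference of each checkpoint gene from wild type in the 3 fusion groups of marrow (left) and spleen (right), with its 95% interval from limma; filled points passed at adjusted p under 0.05 over all genes. All filled points are in spleen: Atm and Cdc25a at 3 stages, and Chek1, Cdc25b and Trp53bp1 at the terminal stage.

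The difference between the tissues was tested as the pooled fusion effect in spleen minus that in marrow, where 14.1% of all genes passed. The pooled stages differ between the tissues, and so do the months on tamoxifen (7 to 8 in fusion marrow, 7 to 23 in fusion spleen). Tissue, stage and time on the drug therefore cannot be told apart in this difference. Of the 9 genes, 2 passed. Cdc25a was 1.24 ± 0.10 higher than wild type in spleen and -0.09 ± 0.19 in marrow, a difference of 1.34 ± 0.22 (adjusted p = 0.00014 by limma). Chek1 stood at 0.38 ± 0.10 in spleen and -0.36 ± 0.20 in marrow, a difference of 0.74 ± 0.23 (adjusted p = 0.03). That Chek1 call did not pass without wild-type marrow 3, wild-type marrow 4 or wild-type spleen 1, 4 or 5, with differences of 0.59 to 0.72. For Atm the effect was -1.26 ± 0.13 in spleen and -0.83 ± 0.22 in marrow, and the difference of -0.43 ± 0.26 (95% interval -0.97 to 0.10) did not pass. Promyelocyte markers, higher in all 5 measured genes in fusion spleen, passed in none in fusion marrow, whose levels of 13.36 to 14.31 overlapped the 13.50 to 13.95 of wild-type marrow. The mean level of the B cell markers lay below every wild-type array in all fusion arrays of both tissues. The part of either list in the Cdc25a and Chek1 differences was not tested.

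With the 3 stages of each tissue pooled, 5 of the 9 genes passed in spleen, beside 32.5% of all genes, and 0 in marrow. The pooled spleen difference had a 95% interval of -1.39 to -0.60 for Cdc25b and of -1.03 to -0.28 for Trp53bp1, with the terminal arrays farthest from wild type in both genes. Cdc25c, at 0.28 ± 0.10, missed the threshold (adjusted p = 0.054) and passed without early spleen 2, progression spleen 1 or wild-type spleen 2 (0.31 to 0.33). Atr (-0.23 ± 0.10), Chek2 (0.09 ± 0.10) and Nbn (0.13 ± 0.12) did not pass.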

How the data were processed

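Each of the 29 samples was hybridised to 1 Affymetrix mouse array of 22690 probe sets. The values are the log2 levels that the authors deposited, made with RMA, affy and limma per the submitters' processing notes. Versions, background settings and filters are not given in the sources used here. The marrow arrays had medians of 8.11 to 8.29 and the spleen arrays of 6.73 to 6.90, so tissues look normalized separately and levels were compared within a tissue. Of the probe sets, 20393 had 1 gene symbol, 691 several and 1606 none in the annotation, and the first gave 12394 genes, each read from its brightest probe set in the tissue. Dim probe sets were kept.

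Groups came from the labels, which call the samples biological replicates. The 4 groups of a tissue entered 1 limma model (lmFit, contrasts, eBayes, limma 3.58.1, R 4.3.3), with Benjamini-Hochberg adjustment over all genes and a threshold of 0.05. The contrast between tissues used all 29 arrays. Every adjusted p is from limma, errors after ± are standard errors of the fit, and arrays have no read depth, so their number limits precision. As a check of the code, the fits were run on simulated data with independent genes and shifts put into some of them. Those data are simpler than the spleen arrays, so the run does not bear on the calls above. Every member was named in each comparison, and up to 4 called genes with the smallest p per list and comparison, with Mki67 and Cdkn1a allowed throughout. Rrm2 and Birc5 were named after their values were seen. The members and lists were chosen with earlier results of these data known. Replicate numbers were not used as pairs. The lowest correlation of array levels was 0.9615 among marrow arrays and 0.9384 among spleen arrays. The pairing check therefore rests on another quantity than these levels. Its 21 same-numbered marrow pairs had coefficients between -0.43 and 0.55, with a median of 0.09 against -0.02 for other pairs. For the 18 same-numbered spleen pairs the lowest was -0.32 and the highest 0.23, with a median of 0.01 against -0.01 for other pairs. Sequences are from RefSeq (GRCm38.p6). Figures were drawn with matplotlib 3.10.9.

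The alternatives were the mean of all probe sets, each probe set by itself, genes above the tissue's median level, quantile normalization again, centring on medians, only the groups compared, array weights, the replicate number as a block, Gapdh or Xist as covariate, leaving out proliferation marrow 1 and wild-type spleen 3, and leaving out each array in turn. Leaving out each array for the named p53 genes and for the marrow medians was added after seeing the data.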

Additional observations from a re-analysis of the deposited data

Results flagged for a closer look

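The pooled fusion effect on Cdc25a differed between spleen and marrow by 1.34 ± 0.22 on the log2 scale (adjusted p = 0.00014 by limma), with all 9 fusion spleens above all 5 wild-type spleens and no such separation in marrow. It passed in all 39 of 39 refits. The effect on Chek1 differed by 0.74 ± 0.23 (adjusted p = 0.03 by limma), and this call did not pass in 7 of 39 refits. Stage and time on tamoxifen differ between the tissues and cannot be told apart from tissue in either gene. No array stood apart from its group by Dixon's test in the 36 gene and group pairs of the 4 groups with 4 or more arrays. With 4 or 5 arrays this test can miss a deviating array, and groups of 3 arrays were not tested. Proliferation marrow 1, the lowest of its group for all 9 genes, was not flagged.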

How the results depend on the processing

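No called value of the 9 genes reversed under any alternative, and 38 of the 135 gene and comparison pairs, none called, changed sign under at least 1, in 91 refits. Atm and Cdc25a passed at all 3 spleen stages, and Cdc25b and Trp53bp1 in terminal spleen, under every alternative run. Array weights raised the number of the 9 genes that passed to 1 in proliferation (Atm), 1 in transition (Cdc25b), 1 in senescence (Atm) and 2 in pooled marrow, each against 0, to 5 against 2 in early spleen, to 4 against 2 in progression spleen, to 7 against 5 in pooled spleen (Atr and Cdc25c added), to 4 against 3 in terminal against early spleen (Chek2 added) and to 5 against 2 between tissues. The Gapdh 3' to 5' difference as covariate gave 4 in progression spleen. For terminal against early spleen, where 3 passed, the fit of only the groups compared, the Gapdh and the Xist covariate each left 1, Cdc25b. The mean of all probe sets gave 2 in terminal against progression spleen, against 1, and 1 between tissues, against 2. Quantile normalization again and centring on medians each took away the Cdc25a call in terminal against early spleen. Each also added Chek1 in progression spleen and Cdc25c in pooled spleen, and quantile normalization again added Cdc25c in early spleen. The cause of these shifts was not tested.

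The replicate numbers do not pair the arrays by any label. With the replicate block, 3 genes passed in pooled spleen against 5, 1 in terminal against early spleen against 3, and 1 between tissues against 2, and Chek1 did not pass in terminal spleen (0.41, adjusted p = 0.06). With each array left out in turn, the number passing ran 2 to 3 in early, 2 to 4 in progression, 5 to 5 in terminal and 5 to 6 in pooled spleen, 1 to 2 in terminal against progression, 1 to 3 in terminal against early, 1 to 2 between tissues and 0 to 1 in pooled marrow, and stayed at 0 in the other marrow comparisons and in progression against early spleen. The number called among everything a fit tested also shifted. Over the alternatives it ran between 8 and 1221 in proliferation and 14 and 1979 in transition marrow, where 35 and 52 were called. It ran between 1 and 69 in senescence and 22 and 1876 in pooled marrow, where 6 and 82 were called. In spleen it ran 825 to 5699 in early (1971 called), 1111 to 3765 in progression (2386) and 2948 to 7197 in terminal spleen (4270). The fits of each probe set by itself and of genes above the tissue's median level tested other numbers of values than the main fit. These ranges include them and are therefore not shifts over a fixed set of genes.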
